A study of Mus musculus with 2 samples.

Results

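Potassium channel genes and the sulfonylurea receptor genes were examined in skeletal muscle RNA of mice null for Jhdm2a and of wild-type mice. The members were all probe sets whose platform annotation gives exactly 1 gene symbol that starts with Kcn or is Abcc8 or Abcc9. They came to 172 probe sets of 86 genes, out of 45037 probe sets that are not array controls and 18193 genes with such a single-symbol probe set. The choice used gene names and no measured value. Jhdm2a, now named Kdm3a, encodes a histone demethylase that acts on lysine 9 of histone H3.

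The study had 1 array of the Affymetrix Mouse Genome 430 2 type for each genotype, and each array carried the combined RNA of 3 mice. The Jhdm2a null group and the wild-type group were both male and aged 3 months, and both carry the strain label of 129 ES cells with 4 generations of backcrossing onto C57BL/6. Which muscle was taken, and which part of the gene was disrupted, are not given in the sources used here. Values are MAS5 signals, a linear brightness per probe set, and a log2 ratio is always null over wild type. With 1 pooled array per genotype there is no replicate check and no test, so every difference below describes this pair of arrays, and the number of arrays limits the precision.

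Potassium channels let potassium leave or enter the fibre and so set its resting potential and end its action potentials. Voltage-gated channels open on depolarisation, calcium-activated channels open when calcium rises, inward rectifiers and tandem-pore channels carry current near rest, and ATP-sensitive channels close when ATP is plentiful. The ATP-sensitive channel of skeletal muscle joins a pore of the Kir6 type with a sulfonylurea receptor, mainly the product of Abcc9, and is known for opening in fatigued fibres.

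The arrays behaved alike as a whole. Both had a median signal of 112 over non-control probe sets, and over 18 hybridisation controls the log2 ratios averaged -0.02 ± 0.09 (SD). Probe sets of the same gene differed in log2 ratio with a pooled SD of 0.29 over 3719 genes. That spread lies within this pair of arrays and measures no variation between mice. It was not separated into technical error and other differences between probe sets. All 15 skeletal muscle fibre markers were above background, among them Acta1, skeletal actin, at 19992 on the array labelled null and 16840 on the array labelled wild type. The Kdm3a probe set read 488 on the array labelled null and 406 on the array labelled wild type, so the label was not borne out by a lower signal, and a probe set outside the disrupted part would show nothing about it. The arrays are therefore called by their labels, and every direction rests on those labels.

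A signal floor of 182, the 60th percentile of non-control signals on both arrays, stood in for detection calls. Clearly above background means at least 2 times the floor, a signal of 364, on both arrays. By that rule 12 of the 86 genes (14.0%) were clearly above background in muscle, against 40.7% of all genes. Another 6 were above the floor on both arrays without reaching 364 on both, which brings those measured to 18 of 86 (20.9%), against 53.3% of all genes. A further 8 passed the floor on 1 array only, and 60 (69.8%) lay at or below it on both arrays, against 41.2% of all genes.

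The genes clearly above background came from 6 families. They were Abcc9, Kcnj11 and Kcnj8 of the ATP-sensitive channels, the inward rectifier Kcnj12, the voltage-gated Kcna5, Kcna7, Kcnc1 and Kcnc4, the modifier Kcng4, Kcnq5, and the calcium-activated Kcnma1 and Kcnn1. No tandem-pore channel and no accessory subunit was clearly above background on both arrays. Signals of different probe sets are not comparable with each other, so the classes say which transcripts were detected and not which was most abundant.

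**Figure D1:**
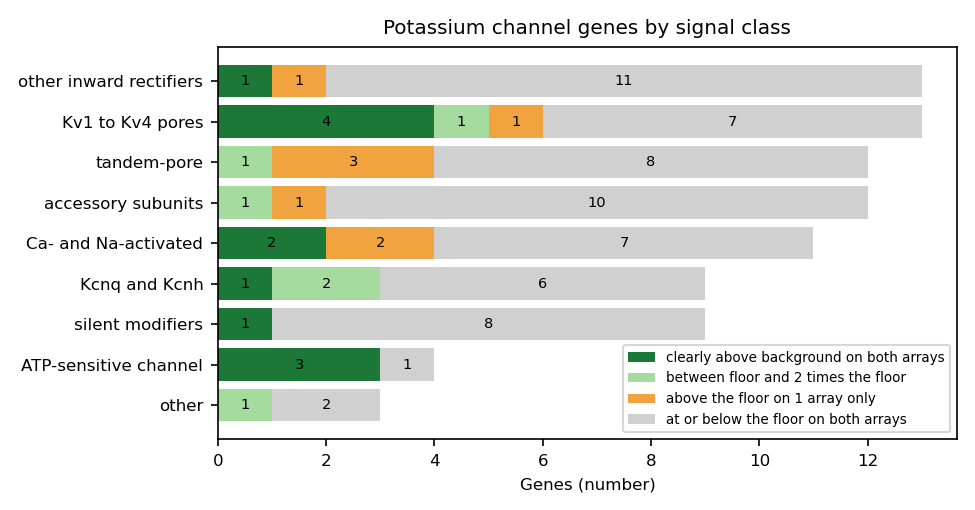
Number of member genes (horizontal axis) in each family (vertical axis), split by signal class on both arrays together. The Kv1 to Kv4 pores have 4 genes clearly above background and the ATP-sensitive channels 3, while the tandem-pore and accessory families have 0. The Kv1 to Kv4 family holds no Kcnb (Kv2) gene.

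The channel transcripts clearly detected in muscle were all slightly to moderately higher on the array labelled null, and 1 channel, Kcnk3, was far lower. All 12 clearly detected genes had a log2 ratio above 0, from 0.16 to 0.84 with a median of 0.31, although Kcna5 and Kcnj11 turned below 0 when ratios were centred on muscle fibre markers. Of all genes in that class 57.7% were above 0, with a median of 0.05. Of the 18 measured members 13 were above 0 and the median was 0.27, against 55.7% and a median of 0.04 for all measured genes. At least 1.5-fold higher were 3 of the 18, Kcng4, Kcnq5 and Abcc9, against 3.35% of all measured genes. No measured member was at least 1.5-fold lower, against 6.27% of all genes, and none differed by 2-fold, against 0.371% higher and 2.36% lower. Among the 6 members near the floor 1 was above 0, against 49.0% of all genes of that class. Counts this small leave the members' shares imprecise.

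Markers of the muscle fibre itself also lay mostly above 0. Of the 15 fibre markers 14 had a log2 ratio above 0, with a median of 0.17 and a range of -0.09 to 0.26. That median was 0.05 after loess and 0.06 after quantile normalization. Their signals had a median of 19992 on the array labelled null and 17935 on the array labelled wild type, where the highest signals of any non-control probe set were 30204 and 28234. Whether such bright probe sets still respond in proportion was not tested, and it bears on any centring on them. Their summed signal was 308664 on the array labelled null and 276209 on the array labelled wild type. With all log2 ratios centred on the fibre markers, an alternative added after values were seen that moved the median of all measured genes to -0.13, the members' median was 0.10 and 11 of 18 stayed above 0. The count past 1.5-fold was then 1 higher, Kcng4, and 1 lower, Kcnh3, against 1.16% and 10.5% of all measured genes. The part of fibre content in the channel values was not tested beyond this.

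**Figure D2:**
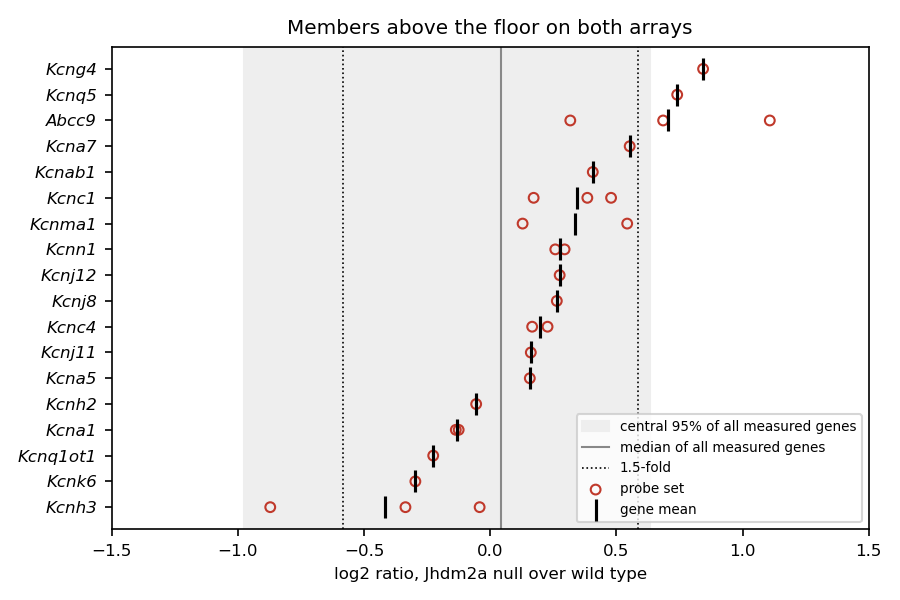
Log2 ratio of null over wild type (horizontal axis) for the 18 members above the floor on both arrays (vertical axis). Open circles are probe sets above the floor on both arrays, the black mark is their mean, the grey band is the central 95% of all measured genes, from -0.98 to 0.63, and the solid line is their median. The means of Kcng4, Kcnq5 and Abcc9 lie to the right of the band.

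The ATP-sensitive channel is built from pore subunits and sulfonylurea receptors, and 3 of its 4 genes were clearly detected. Abcc9 encodes the receptor SUR2, and its 3 probe sets were all higher on the array labelled null. The first read 2326 on the array labelled null and 1079 on the array labelled wild type. The second read 3508 and 2181 on the arrays labelled null and wild type, and the last read 9546 and 7661. Their log2 ratios of 1.11, 0.69 and 0.32 give a mean of 0.70 ± 0.40 (SD of 3 probe sets), a 1.63-fold difference. The probe set with the highest signal thus showed the smallest difference, and from that probe set alone Abcc9 did not reach 1.5-fold.

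Kcnj11 encodes Kir6.2, the pore that pairs with sulfonylurea receptors in striated muscle and the pancreas. Its measured probe set read 2417 on the array labelled null and 2162 on the array labelled wild type, a log2 ratio of 0.16. A second Kcnj11 probe set read 309 on the array labelled null and 176, under the floor, on the array labelled wild type. Kcnj8 encodes Kir6.1, the pore known from vascular smooth muscle, and read 678 on the array labelled null and 565 on the array labelled wild type, a log2 ratio of 0.26. Abcc8, the receptor SUR1 of pancreatic beta cells, was at or below the floor in both probe sets, at 115 and 57.6 on the array labelled null and 161 and 41.7 on the array labelled wild type. The receptor detected in this muscle RNA was therefore that of Abcc9. Centred on the fibre markers, the Kcnj11 ratio was -0.01, so its sign is not settled, while Abcc9 and Kcnj8 stayed above 0 at 0.53 and 0.09.

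Smooth muscle and pericyte markers, which bear on Kcnj8 and Abcc9 because both are also expressed in vessel walls, differed in both directions. Of 8 listed, 7 were measured, 5 of them above 0, with a median log2 ratio of 0.30 and a range of -1.07 to 1.02. Their summed signal was 36803 on the array labelled null and 32578 on the array labelled wild type, with Cnn1 below the floor on both. Des gave the largest part of that sum, 13234 on the array labelled null and 12624 on the array labelled wild type. The sum is therefore no measure of vessel wall content. Their part in the Abcc9 difference was not tested.

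Kcnj8 and Abcc9 are adjacent protein-coding genes on chromosome 6, as Kcnj11 and Abcc8 are on chromosome 7, in a RefSeq gene table of GRCm38.p6. Upstream sequence of the 3 genes past 1.5-fold and of Kcnj8, the neighbour of Abcc9, is shown because these are the members that differed most among those measured and the pair that forms a channel. Each is the 250 bases before the first listed start site, from RefSeq on GRCm38.p6, minus strand for all 4, at chr6:142702275-142702524, chr6:142571615-142571864, chr8:119635681-119635930 and chr1:21962651-21962900. Capitals mark the E-box CANNTG, the general site of basic helix-loop-helix factors such as MyoD.
Abcc9: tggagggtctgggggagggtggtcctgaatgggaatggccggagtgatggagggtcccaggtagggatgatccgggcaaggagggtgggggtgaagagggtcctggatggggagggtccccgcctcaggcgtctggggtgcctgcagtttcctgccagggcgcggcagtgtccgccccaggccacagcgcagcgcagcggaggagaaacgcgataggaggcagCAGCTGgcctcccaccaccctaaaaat
Kcnj8: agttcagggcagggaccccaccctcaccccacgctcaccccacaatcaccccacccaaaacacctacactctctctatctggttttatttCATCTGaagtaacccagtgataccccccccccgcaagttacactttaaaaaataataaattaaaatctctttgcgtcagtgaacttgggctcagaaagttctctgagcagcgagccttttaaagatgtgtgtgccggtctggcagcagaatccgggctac
Kcng4: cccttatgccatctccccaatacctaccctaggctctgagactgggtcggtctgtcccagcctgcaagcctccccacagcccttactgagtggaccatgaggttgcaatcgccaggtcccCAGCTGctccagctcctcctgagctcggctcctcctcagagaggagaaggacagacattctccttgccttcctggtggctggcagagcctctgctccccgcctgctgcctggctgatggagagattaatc
Kcnq5: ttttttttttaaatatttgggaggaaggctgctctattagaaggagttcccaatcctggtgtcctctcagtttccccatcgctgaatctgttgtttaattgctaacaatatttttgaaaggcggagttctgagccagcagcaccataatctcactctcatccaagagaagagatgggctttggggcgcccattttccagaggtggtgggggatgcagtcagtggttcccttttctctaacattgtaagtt

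Abcc9 and Kcng4 each held 1 E-box, in the form CAGCTG, whose last base lay 22 bases before the start in Abcc9 and 125 bases before it in Kcng4. Kcnj8 held 1 E-box of another form, and the Kcnq5 window held none. Upstream windows were found for 65 of the 86 genes, counting the first listed start of each. Among the 11 clearly detected genes with a window, 9 held CANNTG and 3 held CAGCTG, which is contained in CANNTG. Of all 32851 windows of the same length 66.2% held CANNTG and 13.0% held CAGCTG, searched on both strands. Among the 45 members at or below the floor 30 held CANNTG and 12 held CAGCTG, so CAGCTG stood in 27.3% of windows of detected and 26.7% of windows of undetected members. The MEF2 box was in 0 of the 11 windows and in 2.92% of all. The nuclear receptor half-site AGGTCA was in 0 of the 11 and in 14.0% of all windows. A match describes letters in the window and not a site in use.

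Among the voltage-gated pores, 4 of 13 genes were clearly detected and all 4 were higher on the array labelled null by less than 1.5-fold. Kcna7, which encodes Kv1.7, known from skeletal muscle and heart, read 4074 on the array labelled null and 2778 on the array labelled wild type. Its log2 ratio of 0.55, a 1.47-fold difference, was the nearest below the 1.5-fold line, and 4.39% of all measured genes had a ratio at least as high. Kcna5, the Kv1.5 channel of cardiac and smooth muscle, read 1192 on the array labelled null and 1069 on the array labelled wild type, a log2 ratio of 0.16 that turned to -0.01 when centred on the fibre markers. Kcna1 and Kcna2 encode Kv1.1 and Kv1.2, which axons carry beside the nodes of Ranvier. Kcna1 was near the floor, averaging -0.13 ± 0.01 in log2 ratio (SD of 2 probe sets), with signals of 282 and 285 on the array labelled null against 310 and 311 on the array labelled wild type. Kcna2 passed the floor under the null label alone, at 232 against 159 on the array labelled wild type. Schwann cell and nerve markers were higher in 6 of 7 measured genes with a median of 0.57, a range of -2.46 to 1.49, and a summed signal of 17150 on the array labelled null and 12264 on the array labelled wild type. The part of nerve in these values was not tested.

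Kcnc1 and Kcnc4 encode Kv3.1 and Kv3.4, channels that open and close fast. The 3 measured Kcnc1 probe sets read 1354, 941 and 580 on the array labelled null. On the array labelled wild type the same probe sets read 1037, 675 and 514, which gives a mean log2 ratio of 0.35 ± 0.16 (SD of 3 probe sets). All 3 were higher on the array labelled null. Kcnc4 read 973 and 442 on the array labelled null and 831 and 394 on the array labelled wild type, a mean of 0.20 ± 0.04 (SD of 2 probe sets). The other members of this family, Kcna3, Kcna4, Kcna6, Kcnc2, Kcnd1, Kcnd2 and Kcnd3, stayed between 1.40 and 151 on the array labelled null and between 2.20 and 137 on the array labelled wild type, at or below the floor.

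Kcng4 encodes Kv6.4, a silent subunit that forms no channel alone and modifies Kv2 channels. No Kcnb gene, which would encode a Kv2 pore, was among the members, so Kv2 pores were not assessed. The single Kcng4 probe set read 1229 on the array labelled null and 685 on the array labelled wild type. Its log2 ratio of 0.84, a 1.79-fold difference, was the highest of the 18 measured members, and 0.619% of all measured genes had a ratio at least as high. It stayed between 0.67 and 0.87 in all 11 alternatives that were run, but most of them could not change it. With its single probe set above every floor used, the floors and probe set rules left the ratio at 0.84. Values as deposited and dropping non-channel transcripts left it there too. Only quantile normalization, loess and centring on a median could move it, and the range comes from those. It was the only one of 9 silent subunit genes above the floor. The other 8, such as Kcns3 and Kcnv2, read at most 98.9 on the array labelled null and 148 on the array labelled wild type.

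Kcnq5 encodes Kv7.5, a slowly opening channel related to the M-current channels of neurons. Its measured probe set read 1230 on the array labelled null and 736 on the array labelled wild type, a log2 ratio of 0.74 or 1.67-fold. A second probe set read 331 on the array labelled null and 138, under the floor, on the array labelled wild type, so it also was higher on the array labelled null. The last one read 26.9 and 72.6 on the arrays labelled null and wild type, both under the floor. Centred on the fibre markers, Kcnq5 had a log2 ratio of 0.57, just under 1.5-fold.

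The Kcnh genes encode channels of the ether-a-go-go group. Kcnh3, known from brain, was the lowest of the measured members, with 3 measured probe sets that disagreed in size. They read 327, 290 and 272 on the array labelled null and 598, 366 and 280 on the array labelled wild type. The log2 ratios of -0.87, -0.34 and -0.04 give a mean of -0.42 ± 0.42 (SD of 3 probe sets), and 10.5% of all measured genes had a ratio at least as low. From its brightest probe set alone Kcnh3 was 1.83-fold lower. Kcnh2, the hERG channel that repolarises the heart, lay at the floor at 183 on the array labelled null and 190 on the array labelled wild type. The other Kcnq and Kcnh genes, Kcnq1 and Kcnq3 among them, read at most 156 on the array labelled null and 144 on the array labelled wild type.

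**Figure D3:**
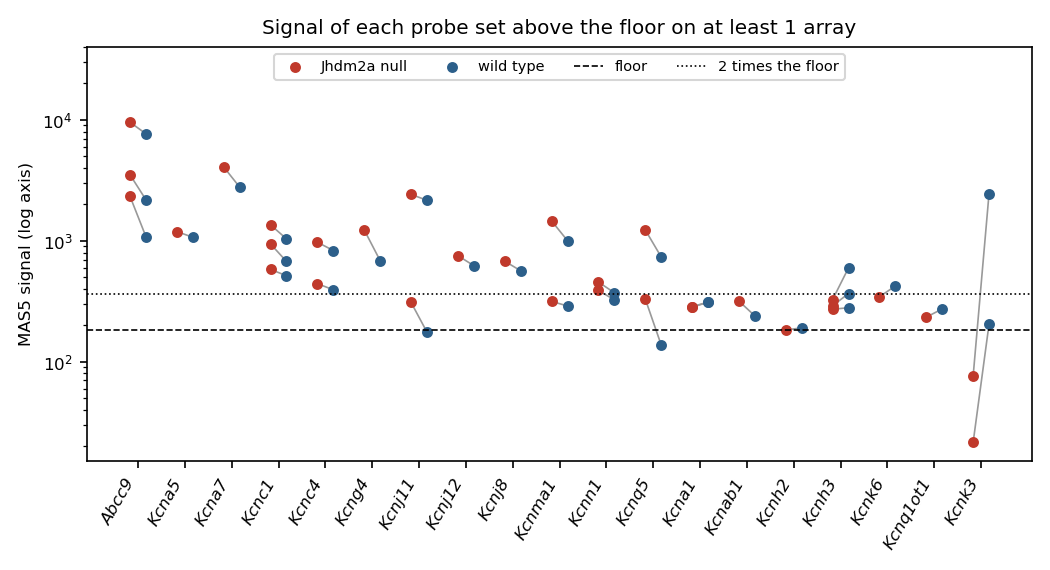
MAS5 signal on a log axis (vertical) for the 18 measured members and Kcnk3 (horizontal), with each probe set above the floor on at least 1 array drawn as a pair of points joined by a line, the array labelled null left and that labelled wild type right. Most lines slope gently, while both Kcnk3 lines cross from below the floor of 182 on the array labelled null to 2459 and 205 on the array labelled wild type.

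The calcium-activated channels were represented by Kcnma1 and Kcnn1. Kcnma1 encodes the pore of the large-conductance BK channel, and its measured probe sets read 1460 and 316 on the array labelled null and 1002 and 289 on the array labelled wild type. The mean log2 ratio was 0.34 ± 0.29 (SD of 2 probe sets), while 3 further Kcnma1 probe sets were below the floor on both arrays. Its auxiliary subunit genes Kcnmb1, known from smooth muscle, and Kcnmb4, known from brain, were at or below the floor. Kcnmb2 passed it on the array labelled wild type only, at 135 on the array labelled null and 197 on the array labelled wild type. Lrrc38, which encodes a BK auxiliary protein of another family, read 1358 on the array labelled null and 859 on the array labelled wild type, a log2 ratio of 0.66.

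Kcnn1, the small-conductance channel SK1, read 456 and 389 on the array labelled null and 372 and 325 on the array labelled wild type, with a mean log2 ratio of 0.28 ± 0.03 (SD of 2 probe sets). Kcnn2, the SK2 channel, was just above the floor on the array labelled null at 192 and below it on the array labelled wild type at 133. Kcnn3, the SK3 channel that appears in denervated muscle, read 17.8 on the array labelled null and 21.1 on the array labelled wild type. Of the neuromuscular junction genes, Chrng, the fetal acetylcholine receptor subunit that also appears on denervation, read 51.9 on the array labelled null and 68.0 on the array labelled wild type. Neither Kcnn3 nor Chrng was above background on either array. The other 4 of the 5 listed junction genes were measured and all 4 were above 0, against 55.7% of all measured genes. Their median log2 ratio was 0.29, with a range of 0.15 to 0.63. Chrne alone was past 1.5-fold, higher, against 3.35% of all measured genes. It was near the floor, at 299 on the array labelled null and 194 on the array labelled wild type. Centred on the fibre markers, 3 of the 4 were above 0 and the median was 0.12.

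Of 13 inward rectifier genes outside the ATP-sensitive group, Kcnj12 alone was above the floor on both arrays. It encodes Kir2.2 and read 753 on the array labelled null and 623 on the array labelled wild type, a log2 ratio of 0.28. Kcnj2 encodes Kir2.1, the classical inward rectifier of muscle, and its 1 probe set read 4.20 on the array labelled null and 6.30 on the array labelled wild type. A single dim probe set does not show that the transcript was absent. Kcnj6, a G-protein-gated channel, was at 95.8 on the array labelled null and 186 on the array labelled wild type, where it just passed the floor. The other genes, such as Kcnj3 and Kcnj16, read at most 156 on the array labelled null and 120 on the array labelled wild type.

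Tandem-pore channels carry the background potassium current, and Kcnk3, which encodes TASK-1, showed the largest difference of any member. Its brightest probe set read 75.9 on the array labelled null and 2459 on the array labelled wild type. The others read 21.5 and 5.70 on the array labelled null and 205 and 127 on the array labelled wild type, so all 3 were lower on the array labelled null. Since the signals on the array labelled null are below the floor, Kcnk3 has only a bound, at least 13.5-fold lower, computed as the signal under the wild-type label over the floor. The bound moves with the floor, to at least 5.27-fold with the floor at the 75th percentile and at least 22.05-fold at the 50th. Of all 18193 genes 0.495% had a bound in this direction, 90 genes, and 5 of those, Kcnk3 included, had one at least as large as its 13.5-fold. Kcnk3 was the 1 member of the 86 with a bound. No member had one in the other direction, against 0.0605% of all genes.

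Kcnk3 is known to be expressed in brown adipocytes, and brown fat markers were lower on the same array. Ucp1, the brown fat uncoupling protein, read 283 on the array labelled null and 14885 on the array labelled wild type. Cidea, a lipid droplet protein of brown fat, read 367 on the array labelled null and 13567 on the array labelled wild type. Elovl3 and Slc27a2, a fatty acid elongase and a fatty acid transporter, had bounds of at least 11.5-fold and at least 12.7-fold lower. Of the 10 listed brown adipocyte markers 8 were measured, 6 of those below 0, and Cox8b, Cox7a1 and Ppargc1a, which muscle also expresses, had log2 ratios of -0.13, 0.03 and 0.16. The summed signal of the list was 36753 on the array labelled null and 71028 on the array labelled wild type. Cox8b and Cox7a1 gave most of it on the array labelled null, at 18805 and 13825. On the array labelled wild type they read 20562 and 13555. The sum is therefore no measure of brown fat content. All 10 listed markers passed the floor on at least 1 array.

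General adipocyte and liver markers were lower as well. The 4 measured adipocyte markers of 6 with a probe set were all lower, with a median log2 ratio of -2.48 and a summed signal of 13132 on the array labelled null and 43859 on the array labelled wild type. For 8 hepatocyte markers the summed signals were 775 and 9732 on the arrays labelled null and wild type, and Apob, Fgb and Ahsg were below the floor on both. In whole-tissue RNA, fewer cells of a type and less RNA per cell cannot be told apart. The part of fat or liver RNA in the Kcnk3 difference was not tested.

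**Figure D4:**
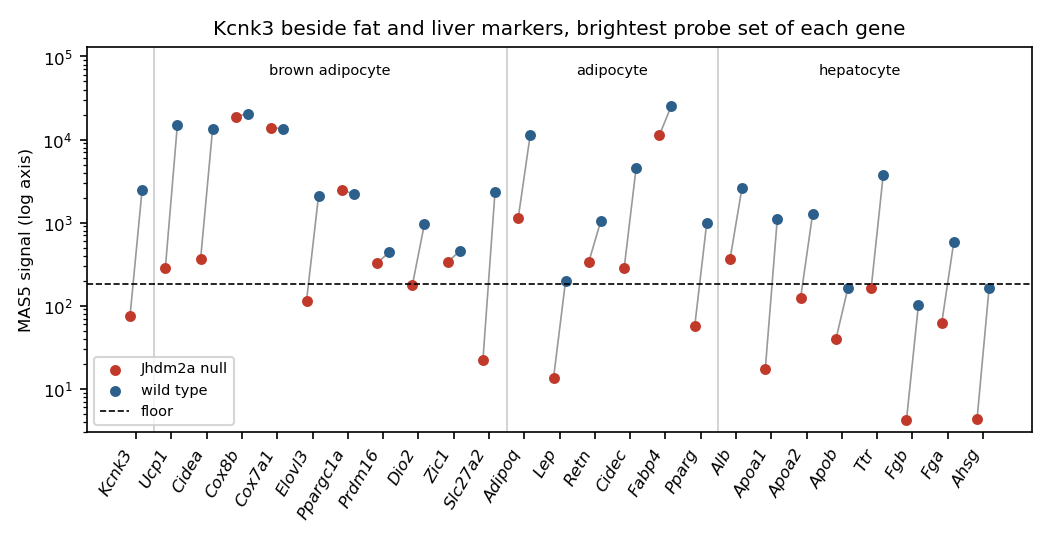
MAS5 signal on a log axis (vertical) of Kcnk3 and of brown adipocyte, adipocyte and hepatocyte markers (horizontal), brightest probe set of each gene, the array labelled null left and that labelled wild type right. Kcnk3, at 75.9 on the array labelled null and 2459 on that labelled wild type, lies lower under the null label as Ucp1 and Cidea do, while Cox8b, Cox7a1 and Ppargc1a lie nearly level.

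The remaining tandem-pore genes were near or under the floor. Kcnk6, which encodes TWIK-2, read 344 on the array labelled null and 423 on the array labelled wild type, a log2 ratio of -0.30. Kcnk2, the stretch-sensitive TREK-1, read 123 on the array labelled null and 311 on the array labelled wild type, where it passed the floor but was too dim for a bound. Kcnk1, or TWIK-1, went the other way, at 190 on the array labelled null and 91.7 on the array labelled wild type. The other 8 genes of the family, Kcnk5 and Kcnk13 among them, read at most 166 on the array labelled null and 176 on the array labelled wild type.

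Accessory subunits bind the pores and change their gating or their transport to the surface. Of 12 such genes only Kcnab1, a cytoplasmic beta subunit of Kv1 channels, was above the floor on both arrays, at 317 on the array labelled null and 239 on the array labelled wild type, a log2 ratio of 0.41. Kcne4 was at the floor, at 166 on the array labelled null and 195 on the array labelled wild type. Kcne3, known as a partner of Kv3.4 in skeletal muscle, read 2.00 on the array labelled null and 5.20 on the array labelled wild type. Kcnip1 to Kcnip4, the calcium-binding partners of Kv4 channels, were below the floor, as were the Kv4 genes Kcnd1, Kcnd2 and Kcnd3 themselves. Kcnq1ot1 is a long non-coding RNA and no channel, and its 1 measured probe set of 6 read 234 on the array labelled null and 273 on the array labelled wild type. Its log2 ratio of -0.23 turned to 0.14 with the floor at the 50th percentile and 0.97 without a floor. Without such non-channel transcripts 17 members were measured and the same 3 genes were past 1.5-fold.

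The lymphocyte channel genes Kcna3 and Kcnn4 were not detected. Neutrophil markers were higher on the array labelled null, while the 3 measured general leukocyte markers differed in direction among themselves. Kcna3 and Kcnn4, which encode Kv1.3 and KCa3.1, were below the floor on both arrays in all their probe sets. The summed signal of 7 neutrophil markers was 8159 on the array labelled null and 854 on the array labelled wild type. Without a floor all 7 had a log2 ratio above 0. With the floor 1 was measured, at 2.63, and 4 had a bound, all higher on the array labelled null. Of 6 general leukocyte markers with a probe set 3 were measured, 2 of them below 0, with a median log2 ratio of -0.18. Their summed signal was 2572 on the array labelled null and 2846 on the array labelled wild type, and the lymphocyte markers Cd3e and Cd79a and the myeloid marker Itgam were below the floor on both. Csf1r gave the largest part of that sum, 1964 on the array labelled null and 2286 on the array labelled wild type. The sum is therefore no measure of leukocyte content. Ptprc, near the floor, was higher on the array labelled null, at 287 against 206, a log2 ratio of 0.48. Csf1r and Cd68 were lower, at -0.36 and -0.18.

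Genes that work beside the potassium channels were read from lists of partners that are no members. Of 23 genes for other ion transport in fibre excitability 14 were measured and 11 were above 0, against 55.7% of all measured genes, with a median of 0.18. Centred on the fibre markers 8 of the 14 were above 0 and the median was 0.01. Past 1.5-fold were 1 higher and 1 lower, against 3.35% and 6.27% of all measured genes. The higher one, Atp1b1, a beta subunit of the sodium pump, was at 1.05 ± 0.32 in log2 ratio (SD of 4 probe sets). Slc12a7, a potassium chloride cotransporter, was the lower one at -1.60, from 1 of its 2 probe sets. That probe set read 182.3 on the array labelled null, barely over the floor of 182.18, and 551 on the array labelled wild type. Its place among the measured genes thus hangs on the floor. Clcn1, the chloride channel that stabilises the resting fibre, had 0.44. Of 16 partners of potassium channels under other names 8 were measured, 6 of them above 0, with a median of 0.24, and Lrrc38 alone was past 1.5-fold, higher, beside the same 55.7% above 0 and 3.35% past 1.5-fold higher of all measured genes. That median was 0.11 from the brightest probe sets, and centred on the fibre markers it was 0.07 with 5 of 8 above 0. Dpp6 and Dpp10, partners of Kv4 channels, were below the floor.

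Kcnj2, Kcnn3, Kcne3, Kcna3, Kcnn4, Kcnq3, Kcnmb1, Kcnk5, Kcnk13, Kcns3, Kcnv2, Kcnj3 and Kcnj16 were named after their values were seen, because of their known roles or as examples of undetected genes, as were the single partner and marker genes given with values.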

How the data were processed

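Total RNA of skeletal muscle was measured on 2 arrays, 1 per genotype. The authors deposited linear signal intensity values for each probe set. The submitters' processing notes name MAS5 without a version. Both columns had a 2% trimmed mean of 500.003, so scaling them to a common trimmed mean changed nothing. The table used holds no detection calls, and 0 columns of other samples were present.

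Of 45037 non-control probe sets 34945 carried a single symbol, 932 carried several and 9160 were unnamed in the annotation used. All 86 member genes matched a RefSeq gene identifier of GRCm38.p6 and 0 were renamed; the files name no build, and that table served for names, neighbours and upstream sequence. A gene's value is the mean log2 ratio of its probe sets above the floor on both arrays. It was counted past a fold when those probe sets had 1 sign. Summed list signals take each gene's brightest probe set. A gene under the floor on 1 array and at 2 times the floor on the other has a bound. No test was run.

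Named are members at 2 times the floor on either array, those past 1.5-fold, those with a bound, and up to 3 of the brightest others per family. Members and lists were chosen with earlier results of these data known. Alternatives were other scalings, floors and probe set rules, with 2 added after values were seen. The procedure was tested on simulated data in Python 3.11.15 with pandas 2.3.3 and statsmodels 0.14.6.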

Additional observations from a re-analysis of the deposited data

How the results depend on the processing

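Kcng4, Kcnq5 and Abcc9 were the 3 genes past 1.5-fold higher with values as deposited, after quantile normalization, with the median set to 0, after loess, with the floor at the 75th or 50th percentile and without _s_at, _x_at and _a_at probe sets. From the brightest probe set Abcc9 dropped out at 0.32 and Kcnh3 was the 1 gene past 1.5-fold lower, against 6.96% of all measured genes. The members' median log2 ratio stayed above 0 in all 11 alternatives, between 0.01 without a floor and 0.35.

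With the floor at the 75th percentile 11 members were measured and 6 were clearly above background. Of all genes measured at that floor 2.85% were past 1.5-fold higher and 5.03% lower. With the floor at the 50th percentile 32 were measured, with 1 past 2-fold higher (Kcnq5), 1 past 1.5-fold and 2-fold lower (Kcnk2). Of all genes measured at that floor 4.03% were past 1.5-fold higher and 6.73% lower. Without a floor, where dim signals enter, 10 of 86 members were past 1.5-fold higher and 12 lower. Of all 18193 genes 10.9% were higher and 14.3% lower, so the members lay near the shares of all genes. Past 2-fold were 5 members higher and 9 lower, for which no share over all genes was computed. Kcnq5 was then not past 1.5-fold, at 0.19. Centred on the fibre markers, 1 was past 1.5-fold higher and 1 lower, against 1.16% and 10.5% of all measured genes. Of 292 values of single genes and families under an alternative, 279 moved by less than the SD between probe sets, and 0 genes past 1.5-fold changed sign. Part of that count was fixed in advance and says nothing about stability. Values as deposited matched the scaled ones, and dropping non-channel transcripts left the other genes as they were. Centring on the fibre markers subtracted 0.17 from every measured ratio, and setting the median to 0 subtracted less, both under that SD of 0.29. No paired analysis was possible because each genotype has 1 array.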

Other observations

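Several members have probe sets on both sides of the floor. Of the 11 measured members with more than 1 probe set, 7 had at least 1 that was at or below the floor on both arrays, among them 3 of 5 for Kcnma1, 5 of 6 for Kcnq1ot1 and 2 of 4 for Kcna1. The class of a gene with a single probe set, as Kcnj2, Kcna7 and Kcng4 have, rests on that probe set alone.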
